A study of Mus musculus with 16 samples.

Results

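The effect of diet without added bacteria was examined in the CD11b+ cells of the mouse brain, by comparing the 5 MAL libraries with the 4 CON libraries, 9 of the 16 libraries of the study. A gene entered the comparison where 4 or more of the 16 libraries held over 10 counts of it, which gave 14565 of the 24421 genes in the table. CD11b is a surface protein of microglia, the resident macrophages of the brain, and of other myeloid cells. CON mice were female C57BL/6J mice kept on a standard chow after weaning. MAL mice were of the same sex, strain, and age and ate an isocaloric chow low in both protein and fat for a month. The study also describes this diet as rich in carbohydrate. A shortage of protein, a shortage of fat, and a surplus of carbohydrate thus cannot be told apart. Both groups were sham-gavaged with PBS, while the 7 MAL-BG mice ate the MAL chow and were gavaged with E. coli and Bacteroidales. Cells were isolated by magnetic beads against CD11b after enzymatic dissociation of the brain, with 1 library per mouse. The labels call the tissue cortical, and the Methods name whole cerebra. The cage and the day are given in neither. The sample titles carry letters and the code of the study has a batch term, but the columns of the table could not be matched to the titles, so the batch of each library was not known here and its part in the results was not tested.

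Cells read their nutrient supply through several routes that end in transcription. When amino acids are scarce, uncharged tRNA activates the kinase GCN2, translation of the transcription factor ATF4 rises, and ATF4 turns on genes of amino acid synthesis, uptake, and tRNA charging. The kinase complex mTORC1 senses amino acids at the lysosome and, when inactive, releases TFEB to drive autophagy and lysosome genes. Scarce sterol or unsaturated lipid releases SREBP factors, which turn on cholesterol and fatty acid synthesis, while fasting raises PPAR, FOXO, and glucocorticoid targets in liver and muscle. In brain these routes are partly shielded by the blood-brain barrier.

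The labelled cell type was checked first. All 18 homeostatic microglia genes of the marker list were tested in these libraries. Abundances in CPM (the count scaled to a common library size, with trimmed mean of M values, TMM, factors) of the fractalkine receptor gene Cx3cr1 ran from 2383 through a median of 3071 to 5490 over the 9 libraries, and those of Itgam, which encodes CD11b, from 885 through 1118 to 1331. Totals were 10312703 to 13461574 counts in CON and 10864121 to 12819982 in MAL. In all, 3 libraries stood apart on the first principal component of the 9 (38.7% of the variance), CON 1 at -21.3, MAL 1 at -15.4, and MAL 4 at -28.6, against 6.57 to 15.7 for the other 6, so the split crossed the diets. RNA of other brain cells was present throughout. The 19 choroid plexus markers summed to 14803 to 57030 CPM in CON and 6937 to 44584 CPM in MAL, and all 19 were lower in MAL without passing the test (median log2 fold change -0.28, from -0.53 without CON 1 to 0.10 without CON 2). The 15 neuronal markers, at 149 to 641 CPM in CON and 150.3 to 714 in MAL, were also all lower (median -0.32, from -0.63 without CON 1 to -0.15 without CON 3 or MAL 4), and their part in the results below was not tested. The globin genes Hba-a1, Hba-a2, Hbb-bt, and Hbb-bs were listed at 0 in each library and Slc4a1 had 0 to 4 counts, so 3 of 8 erythroid genes were tested.

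**Figure D1:**
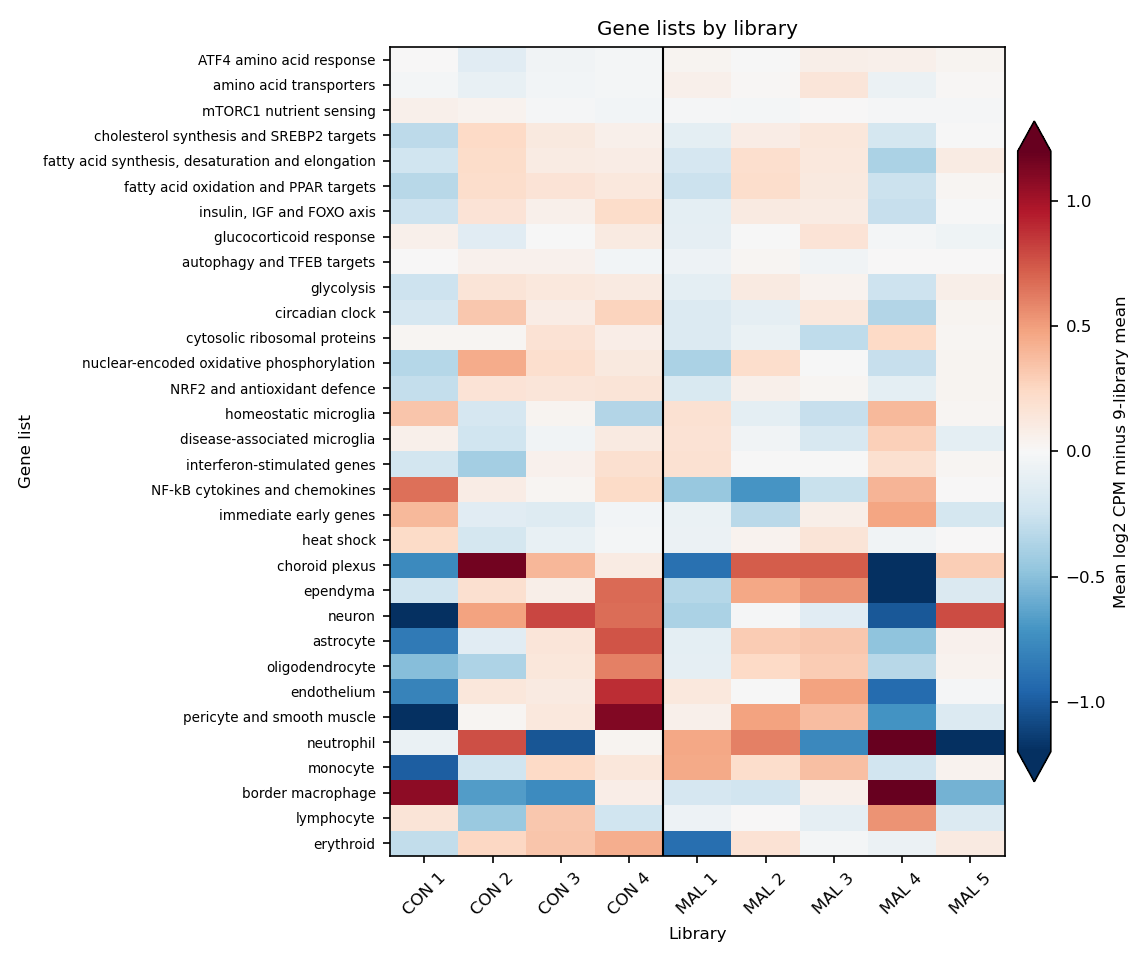
Mean log2 CPM of each gene list in each of the 4 CON and 5 MAL libraries, minus its mean over the 9 libraries, with colors capped at 1.2 on either side. Choroid plexus and neuron lists vary between libraries of the same diet more than any nutrient list, and CON 1, MAL 1, and MAL 4 share low choroid plexus values.

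No differentially expressed gene (DEG) was found between MAL and CON. The percentage of tested genes called at an adjusted p under 0.05 with a fold change above 1.5 was 0%, and the smallest adjusted p was 0.999 (edgeR quasi-likelihood test, Benjamini-Hochberg adjustment over 14565 genes), which is also the adjusted p of every gene named below for this comparison. DESeq2 and limma-voom likewise called 0, with a smallest adjusted p of 0.0703 by DESeq2 and 0.723 by limma-voom, and without MAL 5 it was 0.0857 by edgeR. At an unadjusted p under 0.05 there were 212 genes (1.46%), of which 90 (0.618%) were higher and 122 (0.838%) lower in MAL, by limma-voom 198, and by DESeq2 241. The larger side changed in some alternative fits. In a fit of the 9 diet libraries alone there were 313 such genes, 192 higher and 121 lower. Without CON 1 there were 635 higher and 451 lower, and without the 3 libraries that stood apart 122 and 105. The other alternatives had more lower than higher genes. Of all genes tested, 45.6% were higher and 54.4% lower in MAL, with a median log2 fold change of -0.02. The CPM ranges of the 2 groups did not overlap for 104 genes (0.714%), with MAL above CON in 60 (0.412%) and below in 44 (0.302%). P values here rest on the spread between mice of a group, estimated in a fit of all 16 libraries. The share of genes under 0.05 (1.46%) was below the 0.05 that evenly spread p values would give. The p values thus ran high, and the cause was not tested. The count at an unadjusted p under 0.05 rested on single libraries, being 1086 without CON 1, 126 without MAL 1, 131 without CON 2, and 227 without the 3 libraries that stood apart, with 0 DEGs in each case.

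**Figure D2:**
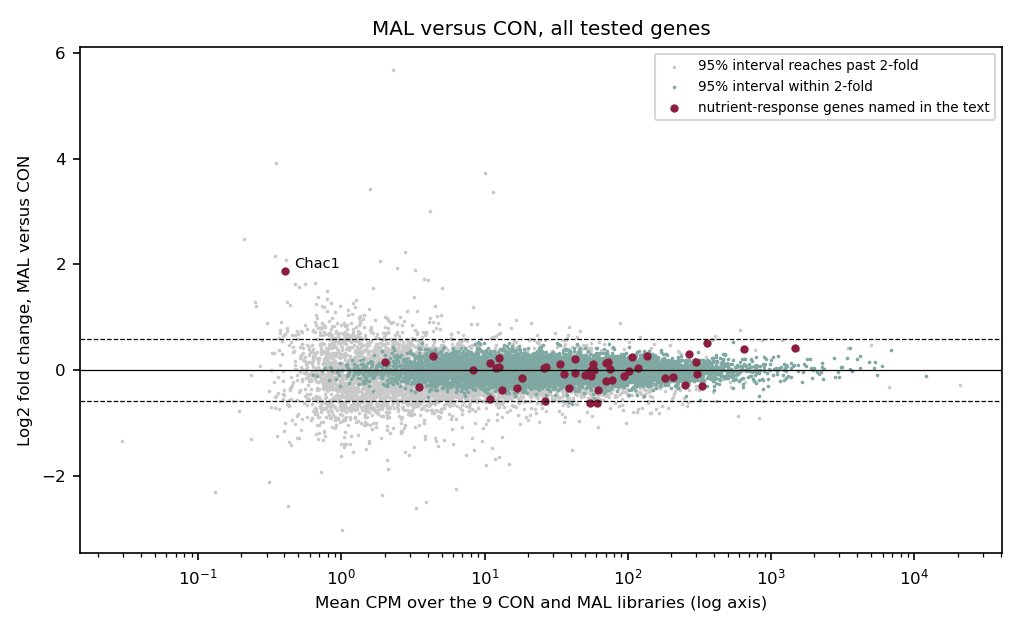
Log2 fold change of MAL versus CON (vertical axis) against the mean CPM over the 9 libraries (log axis) for all tested genes, with dashed lines at 1.5-fold. Of the nutrient-response genes in dark red, Chac1 at 1.88, a gene with few counts, lies above the upper line and Nr1d1 at -0.63 and Dbp at -0.62 lie below the lower line.

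What this design could have missed was set by the width of the intervals. For 10568 genes (72.6%) the 95% interval of the fold change lay within 2-fold in either direction, and for 7117 (48.9%) within 1.5-fold. A formal equivalence test against 2-fold (2 one-sided tests, Benjamini-Hochberg adjusted) was passed by 11075 genes (76%). Precision followed abundance. Above a mean of 100 CPM, 94.4% of 2068 genes were bounded within 2-fold and 75.8% within 1.5-fold. Between 10 and 100 CPM these shares were 88.8% and 66.1% of 7853 genes. Between 1 and 10 CPM they were 40.3% and 8.98% of 4031 genes, and under 1 CPM 2.61% and 0% of 612 genes. To pass the test as the only changed gene, the median gene would have needed an observed change of 2.73-fold, from 2.16-fold above 100 CPM to 18.2-fold under 1 CPM. With 1% of genes changed, the median gene would have needed 1.89-fold. A change of 1.5-fold in a single gene was therefore not detectable at this depth and number of mice for most genes, although an interval could bound it.

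**Figure D3:**
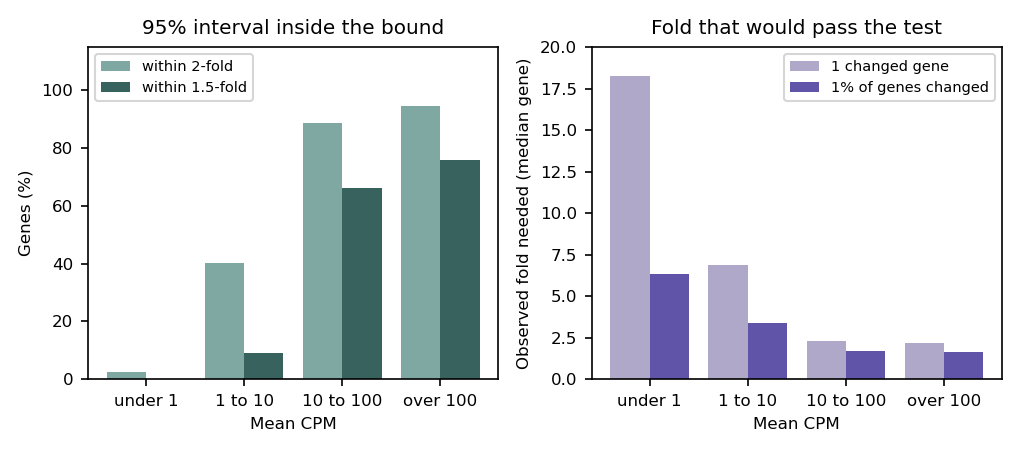
Left, percent of genes whose 95% interval of MAL versus CON lay within 2-fold or 1.5-fold, by mean CPM. Right, the median observed fold change that would pass the adjusted test if 1 gene or 1% of genes changed. Bounds are tight above 10 CPM and loose below 1 CPM, where the lone-gene value reaches 18.2-fold.

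Of 50 nutrient-response genes chosen as readouts of these routes, 26 were higher and 24 lower in MAL, and 0 passed the test. The 95% interval lay within 2-fold for 42 of the 50 and within 1.5-fold for 18. The intervals of Chac1, Nr1d1, Dbp, Pdk4, Irs2, Nqo1, Angptl4, and Tsc22d3 reached past 2-fold, so for these 8 a 2-fold change in at least 1 direction was not bounded. The intervals of 2 of the 50 left out 0 before adjustment, those of Chac1 and Sqstm1. These were also the 2 whose ranges did not overlap, against 0.714% of all genes. They were the 2 with an unadjusted p under 0.05 as well (edgeR), against 1.46% of all genes.

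**Figure D4:**
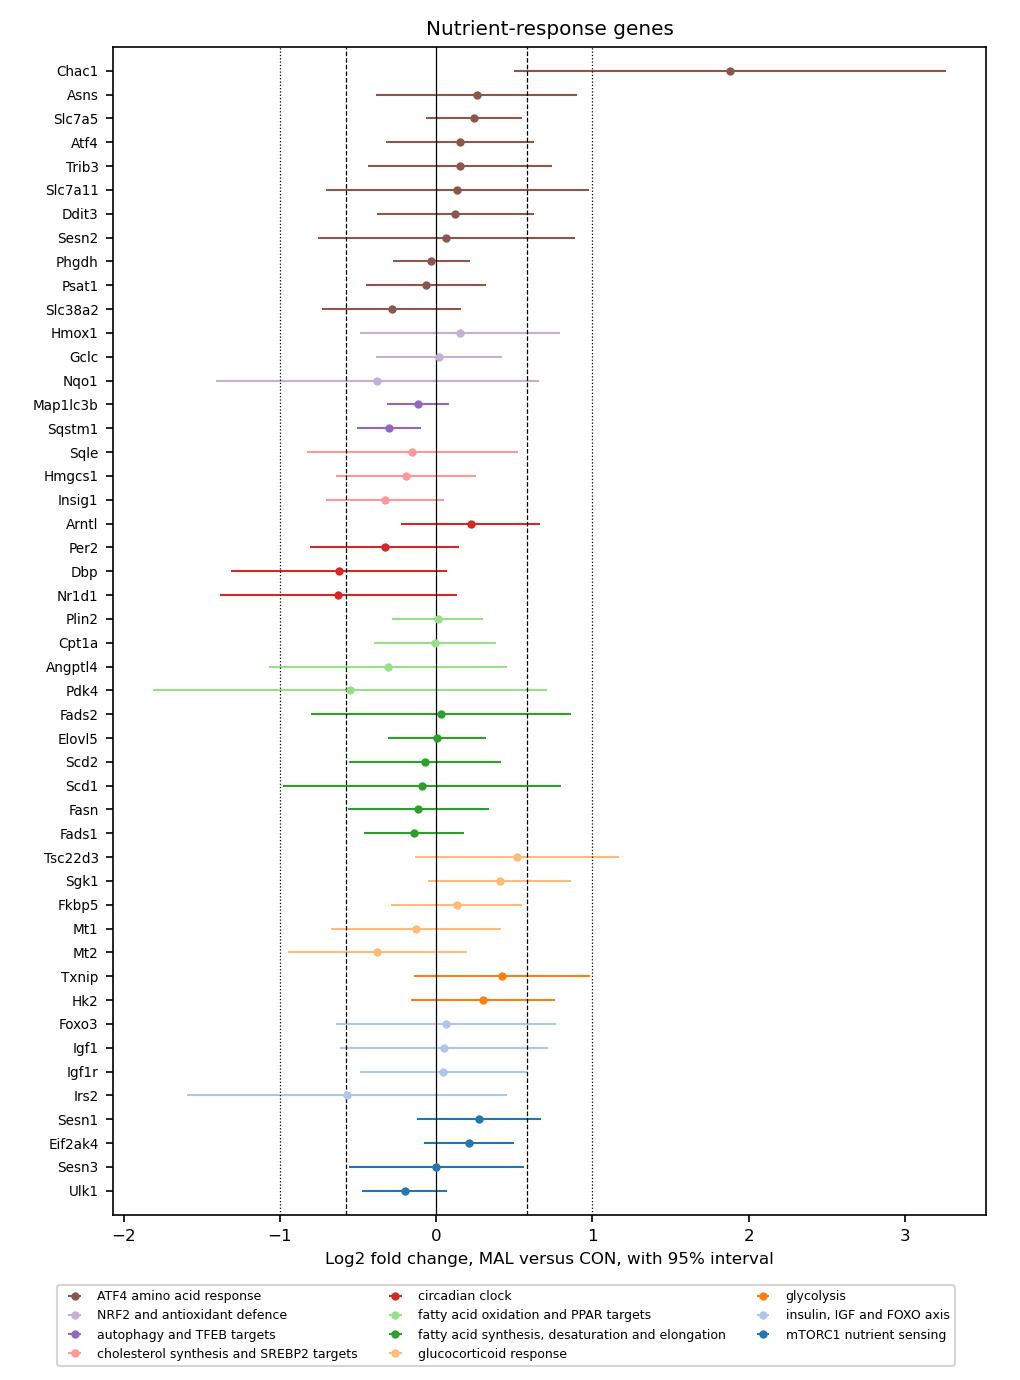
Log2 fold change of MAL versus CON with its 95% interval for 48 of the 50 nutrient-response genes, colored by list, with dashed lines at 1.5-fold and dotted lines at 2-fold. Of these, 40 intervals lie between the dotted lines, and the widest is that of Chac1.

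The promoters of the genes that ATF4 and SREBP2 are known to act on show what these routes read. RefSeq promoters on GRCm38.p6, from 250 bases before to 50 after the start, were searched on both strands for the ATF4 composite element TGATGNAAN and the sterol element TCACNCCAC. The ATF4 letters occurred in 1299 of 32851 promoters (3.95%), and in 15 of the 37 tested ATF4 list genes with a promoter entry. The sterol letters occurred in 408 promoters (1.24%), and in 1 of 19 such cholesterol genes, Hmgcs1. The promoters of 4 genes follow, 5′ to 3′ on the strand of the gene, because their genes are the readouts on which the diet comparison of these routes turns, with the matched letters in capitals. Asns is on chr6:7693160-7693459 (minus strand), Chac1 on chr2:119350992-119351291 (plus), Trib3 on chr2:152344011-152344310 (minus), and Hmgcs1 on chr13:119690101-119690400 (plus). A match is a description of the letters and was not tested for binding.
Asns: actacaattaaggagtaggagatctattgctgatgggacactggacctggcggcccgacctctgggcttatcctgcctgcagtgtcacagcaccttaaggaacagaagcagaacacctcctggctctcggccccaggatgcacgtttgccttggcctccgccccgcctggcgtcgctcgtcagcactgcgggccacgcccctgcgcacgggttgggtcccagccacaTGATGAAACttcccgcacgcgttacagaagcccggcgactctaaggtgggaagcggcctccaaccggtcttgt
Chac1: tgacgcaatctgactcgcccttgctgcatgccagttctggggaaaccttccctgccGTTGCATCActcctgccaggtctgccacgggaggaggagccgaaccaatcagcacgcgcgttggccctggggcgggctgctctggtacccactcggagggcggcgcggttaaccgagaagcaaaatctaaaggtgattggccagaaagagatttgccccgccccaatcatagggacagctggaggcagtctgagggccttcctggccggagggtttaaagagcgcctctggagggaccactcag
Trib3: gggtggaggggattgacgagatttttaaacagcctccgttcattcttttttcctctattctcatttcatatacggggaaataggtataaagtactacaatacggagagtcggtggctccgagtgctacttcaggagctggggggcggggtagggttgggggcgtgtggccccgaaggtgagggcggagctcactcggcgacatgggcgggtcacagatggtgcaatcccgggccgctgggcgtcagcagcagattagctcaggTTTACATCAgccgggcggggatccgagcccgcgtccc
Hmgcs1: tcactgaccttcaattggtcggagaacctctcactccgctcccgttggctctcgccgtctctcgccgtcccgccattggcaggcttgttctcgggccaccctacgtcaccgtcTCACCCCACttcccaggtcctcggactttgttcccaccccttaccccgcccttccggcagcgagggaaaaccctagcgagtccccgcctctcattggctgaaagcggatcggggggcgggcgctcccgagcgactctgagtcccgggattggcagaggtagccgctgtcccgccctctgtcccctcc

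No gene of the ATF4 amino acid response passed the test between the diets. Of 47 listed genes 45 were tested, with 32 higher and 13 lower in MAL (all genes, 45.6% higher), a median log2 fold change of 0.10 (all genes, -0.02), and 0 that passed the test. Intervals lay within 2-fold for 39 of the 45. The mean log2 CPM of the list, as a deviation from the 9-library mean, was -0.13 to 0.00 in CON and -0.00 to 0.07 in MAL, so the groups met at the edge, and the median was 0.05 without MAL 4. Among the 15 genes with the ATF4 letters in the promoter, 10 were higher and 5 lower (median 0.13).

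Atf4 itself, the factor on which the route converges, was at 365, 267, 258, and 237 CPM in CON and at 275, 249.9, 291, 497, and 253 CPM in MAL. The MAL range enclosed the CON values apart from its lower end, and MAL 4 was the highest. The fold change lay between 0.801 and 1.54 (95% interval). Regulation of ATF4 is largely by translation, which these counts do not measure. Asns, asparagine synthetase, whose promoter is printed above, was at 1.92, 3.25, 5.12, and 5.30 CPM in CON and at 5.28, 4.03, 3.96, 4.43, and 5.65 in MAL, with a log2 fold change of 0.26 ± 0.30 (SE) and a fold between 0.767 and 1.87. The lowest values were those of 2 CON libraries and the other values overlapped. Trib3, a pseudokinase that restrains ATF4, was at 1.90 ± 0.627 CPM (SD, n = 4) in CON and 2.11 ± 0.309 (SD, n = 5) in MAL, with a fold between 0.738 and 1.67.

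Chac1, a glutathione-degrading enzyme and a sensitive ATF4 target, had the largest difference of the 50 readouts. The gene (chr2:119351242-119354326, GRCm38.p6) had 3, 3, 1, and 1 counts in CON and 10, 11, 6, 5, and 5 in MAL, or 0.0757 to 0.278 CPM and 0.398 to 0.851 CPM. Each MAL library was above each CON library. The log2 fold change was 1.88 ± 0.66 (SE), with a fold between 1.41 and 9.61 and an unadjusted p of 0.00929 (edgeR quasi-likelihood). The ratio of the summed counts, 37 to 8, was 3.72 after scaling, with an exact 95% counting interval of 1.71 to 9.26. That interval covers counting error only and leaves out the spread between mice. With adjusted p = 0.999 this gene did not pass, and it was tested only through the filter over 16 libraries, since fewer than 4 of the 9 had more than 10 counts, as for 359 of the tested genes.

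The remaining ATF4 readouts were bounded more tightly. Ddit3, which encodes the stress factor CHOP, had a fold between 0.768 and 1.54. Serine synthesis enzymes were close to level, with Phgdh at 55.5 ± 6.95 CPM in CON and 54.3 ± 3.09 in MAL (fold between 0.824 and 1.16) and Psat1 between 0.734 and 1.25. Sesn2, a leucine sensor that ATF4 induces, was bounded between 0.591 and 1.85. In contrast, Jdp2, a repressor of the AP-1 family on the same list, was lower in MAL, at 17.8 to 35.0 CPM in CON and 11.3 to 18.8 in MAL, with a log2 fold change of -0.89 ± 0.27 (SE) and an unadjusted p of 0.0038 (edgeR). Its ranges overlapped through CON 2. Fgf21, a hormone of protein restriction made mainly in liver, was listed at 0 in each library, and Stc2 had 0 to 5 counts and was not tested.

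Amino acid transporters gave 21 higher and 8 lower of 29 tested (median 0.10, from 0.05 without MAL 4 to 0.16 without CON 1), with 0 that passed and 25 within 2-fold. Slc7a5, the leucine importer, was at 94.2, 80.6, 101, and 112 CPM in CON and at 137, 107, 139.8, 90.2, and 101 in MAL, with overlapping ranges and a fold between 0.957 and 1.47. Slc38a2, a glutamine and alanine importer that amino acid shortage induces, was at 276 ± 127 CPM (SD, n = 4) in CON and 227 ± 37.9 (SD, n = 5) in MAL, and its highest value was CON 4 at 462. The cystine importer Slc7a11 had a fold between 0.613 and 1.97.

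mTORC1 components and their amino acid sensors were among the tightest lists. Of 47 tested, 20 were higher and 27 lower (median -0.02, and 0.02 without CON 1), 0 had an unadjusted p under 0.05, and 45 were bounded within 2-fold and 40 within 1.5-fold. Eif2ak4, which encodes GCN2, was at 53.3, 34.0, 34.0, and 34.7 CPM in CON and at 37.6 to 51.6 in MAL. The 3 lowest libraries were thus CON and the highest was CON 1. The fold lay between 0.947 and 1.41. Sesn1, a leucine sensor also induced by FOXO, was at 96.7 to 177 CPM in CON and 114 to 195 in MAL. Ulk1, the autophagy kinase that mTORC1 inhibits, had a fold between 0.719 and 1.05.

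**Figure D5:**
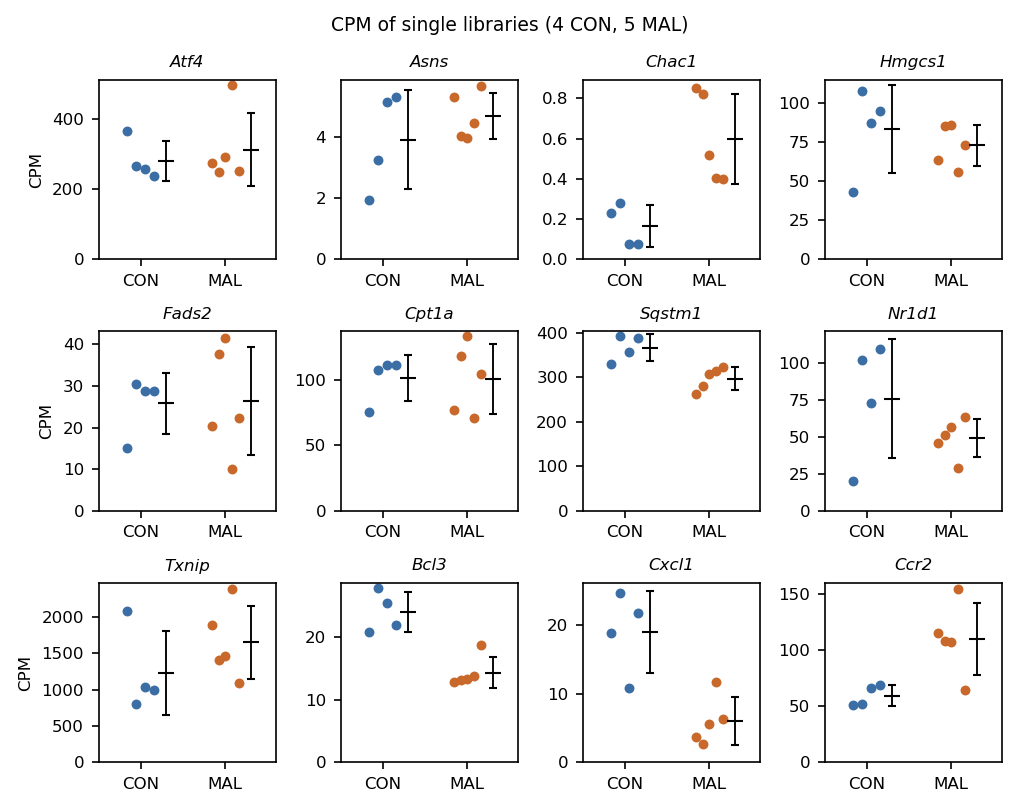
CPM of 12 genes in each CON (blue) and MAL (orange) library, with the mean and SD of each group in black. Ranges overlap for Atf4, Asns, Hmgcs1, Fads2, Cpt1a, Nr1d1, Txnip, Cxcl1, and Ccr2 and not for Chac1, Sqstm1, and Bcl3.

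No gene of cholesterol synthesis passed the test. Of 26 genes tested, 9 were higher and 17 lower (median -0.04, from -0.14 without CON 1 to 0.01 without CON 2), 0 had an unadjusted p under 0.05, and 25 were bounded within 2-fold. Hmgcs1, the first committed enzyme of the route and the gene with the sterol letters, was at 43.3, 108, 87.6, and 94.9 CPM in CON and at 64.0, 85.6, 86.4, 55.8, and 73.7 in MAL. CON held both the lowest and the highest library. The fold lay between 0.642 and 1.19. Sqle, squalene epoxidase, was wider, with a fold between 0.563 and 1.44. Insig1, which holds SREBP in the endoplasmic reticulum and is itself a target, was at 29.2 to 61.3 CPM in CON and 27.9 to 40.0 in MAL, a log2 fold change of -0.33 ± 0.18 (SE).

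Fatty acid synthesis, desaturation, and elongation gave 15 higher and 17 lower of 32 tested (median -0.06, from -0.15 without CON 1 to 0.01 without MAL 4), with 0 at an unadjusted p under 0.05. Fads1 and Fads2 encode the desaturases that make long polyunsaturated fatty acids. Fads1 had a fold between 0.726 and 1.13. Fads2 was at 15.0, 30.5, 28.8, and 28.8 CPM in CON and at 20.3, 37.7, 41.5, 10.2, and 22.2 in MAL, a log2 fold change of 0.03 ± 0.39 (SE), and the MAL libraries enclosed the CON range. Fasn, fatty acid synthase, had a fold between 0.676 and 1.26, and the stearoyl desaturases Scd1 and Scd2 between 0.506 and 1.74 and between 0.679 and 1.34. CON 1 and MAL 4 were the lowest library of their group for Fads2, Fasn, Scd1, and Scd2, and they also had low choroid plexus values.

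Genes of fatty acid oxidation and PPAR targets were lower in MAL for 31 of 41 tested (median -0.08, from -0.16 without CON 1 to -0.02 without CON 2 or MAL 1), with 0 at an unadjusted p under 0.05 and 35 bounded within 2-fold. With the choroid plexus marker level as a covariate, 24 were lower and the median was -0.03. Cpt1a, the gate of mitochondrial fatty acid import, was at 75.6, 108, 111, and 111 CPM in CON and 77.0, 118, 134, 70.9, and 104 in MAL (fold between 0.758 and 1.31). Plin2, a lipid droplet coat protein, was level at 58.0 ± 9.11 and 58.4 ± 8.90 CPM, with a fold between 0.823 and 1.23. Pdk4, a fasting-induced brake on glucose oxidation, was bounded only between 0.285 and 1.63.

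Hormone-linked lists gave no call. The insulin, IGF, and FOXO axis had 16 higher and 21 lower of 37 (median -0.05, from -0.08 without CON 1 to -0.01 without CON 4). Irs2, an insulin receptor substrate that FOXO induces, was at 18.4, 50.7, 26.5, and 34.4 CPM in CON and at 13.1 to 28.2 in MAL, with a fold between 0.331 and 1.37. The receptor gene Igf1r and the factor gene Foxo3 were bounded between 0.714 and 1.495 and between 0.641 and 1.70. Glucocorticoid targets had 11 higher and 14 lower of 25 (median -0.04), and the median was 0.11 without CON 1 and 0.01 without CON 4, so its sign rested on single libraries. Tsc22d3, which encodes GILZ, was at 535, 153, 250.3, and 210.1 CPM in CON and at 487, 318, 445, 567, and 238 in MAL. CON 1 lay among the MAL values and above the other 3 CON libraries. Its log2 fold change was 0.52 ± 0.31 (SE), and Sgk1, a kinase gene of the same list, had 0.41 ± 0.22. Fkbp5, the usual readout of the receptor, had a fold between 0.818 and 1.47.

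Autophagy and TFEB targets were among the most tightly bounded lists, with all 54 tested genes within 2-fold and 47 within 1.5-fold, 20 higher and 34 lower (median -0.02, from -0.05 without MAL 4 to -0.01 without MAL 1). Sqstm1 (chr11:50200152-50210820) was the exception in separation. It encodes p62, the cargo receptor of selective autophagy and also an NRF2 and NF-kB target, and was at 329, 392, 356, and 388 CPM in CON and at 262, 281, 306, 314, and 322 in MAL. Each MAL library was below each CON library. The log2 fold change was -0.30 ± 0.10 (SE) with a fold between 0.703 and 0.936, an unadjusted p of 0.00653 (edgeR), and adjusted p = 0.999. Map1lc3b, which encodes the membrane marker LC3B, had a fold between 0.805 and 1.06.

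Glycolysis gave 9 higher and 22 lower of 31 (median -0.11, from -0.23 without CON 1 to -0.04 without MAL 4). Txnip, which glucose induces and which limits glucose uptake, was at 2083, 806, 1043, and 997 CPM in CON and at 1899, 1416, 1465, 2384, and 1097 in MAL. As for Tsc22d3, CON 1 stood with MAL, and the log2 fold change was 0.42 ± 0.27 (SE). Hexokinase gene Hk2 had 0.30 ± 0.22. Pfkfb3, a kinase gene that drives glycolysis and that inflammatory signals induce, was instead lower (log2 fold change -0.51 ± 0.23, unadjusted p = 0.0403, edgeR), at 209.6 to 328 CPM in CON and 113 to 264 in MAL.

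Circadian genes had 4 higher and 17 lower of 21 (median -0.19, from -0.28 without CON 3 to -0.07 without CON 2, and -0.10 without CON 4). The output genes Dbp and Nr1d1, which peak together in the day, were at 21.0, 87.9, 66.9, and 95.8 CPM and at 19.96, 102, 73.0, and 109 CPM in CON, and at 36.3 to 53.4 and 29.3 to 63.2 CPM in MAL. CON 1 was the lowest of all 9 libraries for both, and the other 3 CON libraries were the highest. Log2 fold changes were -0.62 ± 0.33 and -0.63 ± 0.36 (SE), and without CON 1 they were -0.92 and -0.94. Arntl, which encodes BMAL1 and runs in antiphase, was higher by 0.22 ± 0.21, and Ciart and Cry2, repressors of the clock, were lower with unadjusted p values of 0.0281 and 0.0401 (edgeR). The hour of dissection is not given in the sources used here, and its part in these values was not tested.

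Ribosomal protein and respiratory chain genes were nearly all lower in MAL by small amounts, without passing the test. Of 78 cytosolic ribosomal protein genes, 76 were lower in MAL (median -0.13, from -0.21 without MAL 4 to -0.07 without MAL 3), 1 at an unadjusted p under 0.05, and all 78 were bounded within 2-fold. These genes share reads with near-identical pseudogenes, so single members are uncertain, and Rpl26 had 2 counts in all. Mean deviations were 0.02 to 0.17 in CON and -0.31 to 0.24 in MAL, where MAL 4 exceeded each CON library and MAL 3 was lowest. Of 73 nuclear-encoded genes of oxidative phosphorylation, 72 were lower (median -0.21, from -0.34 without CON 1 to -0.09 without CON 2, and -0.13 without MAL 1), 0 at an unadjusted p under 0.05. Mean deviations were -0.34, 0.44, 0.20, and 0.12 in CON and -0.38, 0.21, -0.01, -0.28, and 0.04 in MAL, so each diet held low libraries. These were CON 1, MAL 1, and MAL 4, which had the lowest choroid plexus deviations (-0.76, -0.89, and -1.76, against 0.10 to 1.16 in the others). With the choroid plexus covariate 70 were lower and the median was -0.14. Members of a list vary together between libraries, so its count is not a count of separate observations. NRF2 and antioxidant genes had 12 higher and 26 lower of 38 (median -0.14, from -0.22 without CON 1 to -0.04 without CON 2), with 0 at an unadjusted p under 0.05. Hmox1, the heme-degrading enzyme, was at 116, 47.0, 55.9, and 56.1 CPM in CON and at 60.3 to 112 in MAL, and the glutathione synthesis gene Gclc had a fold between 0.766 and 1.34.

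Genes of microglial state were mostly level. Of 18 homeostatic genes 15 were higher (median 0.07, -0.02 without MAL 4, and -0.04 without CON 4), with 17 bounded within 2-fold. Of 20 disease-associated genes 13 were higher (median 0.05, -0.07 without MAL 4, and -0.03 without CON 2). Itgax, which encodes CD11c, and Clec7a, a fungal sugar receptor gene, were higher at unadjusted p values of 0.0304 and 0.0437, and the growth factor gene Csf1 was lower at 0.022 (edgeR). Interferon-stimulated genes had 23 higher of 26 (median 0.16, from 0.07 without CON 2 to 0.30 without CON 4), with 0 at an unadjusted p under 0.05, and 15 were higher without the 3 libraries that stood apart.

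Inflammatory transcripts were among the genes with the smallest p values, with lower levels in MAL and 0 that passed after adjustment. Of 21 NF-kB cytokine and chemokine genes, 19 were lower (median -0.36) and 6 had an unadjusted p under 0.05, 28.6% of the list against 0.838% of all genes. Without CON 1 the median was -0.18 with 5 such genes, without MAL 4 it was -0.55, and without the 3 libraries that stood apart -0.30 with 3. Cxcl1, which is among the 6, was also named by the rule of the smallest p, so the count of 6 partly repeats that choice. The list itself was written with earlier results of these data known. Bcl3 (chr7:19808462-19822824), an IkB family co-regulator of NF-kB that was not on the list, had the smallest p of all genes. It was at 20.8, 27.9, 25.5, and 22.0 CPM in CON and at 12.9, 13.1, 13.3, 13.8, and 18.9 in MAL. The ranges did not meet. Its log2 fold change was -0.74 ± 0.16 (SE, unadjusted p = 0.000267, edgeR). Cxcl1 (chr5:90891245-90893121), a neutrophil-attracting chemokine gene, was at 18.9, 24.8, 10.9, and 21.8 CPM in CON and at 3.66, 2.69, 5.68, 11.7, and 6.29 in MAL, with overlap between CON 3 and MAL 4 only. Its log2 fold change was -1.67 ± 0.41 (SE), a fold between 0.173 and 0.571, with an unadjusted p of 0.000784 (edgeR).

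Il1a was at 625, 901, 814, and 787 CPM in CON and at 337, 229.8, 372, 409, and 794 in MAL. Il1b was at 217, 228, 225, and 302 CPM in CON and at 97.1, 113, 102, 186, and 242 in MAL. For both, MAL 5 lay within the CON range and the other 4 MAL libraries lay below it. Log2 fold changes were -0.87 ± 0.33 and -0.71 ± 0.31 (SE), with unadjusted p values of 0.0183 and 0.0328 (edgeR). Nfkb2, a subunit of the alternative NF-kB route, was at 89.1 to 108 CPM in CON and 59.7 to 88.7 in MAL, without overlap. Il1r2, the decoy receptor for interleukin 1, was at 2.97 to 5.22 CPM in CON and 1.03 to 2.31 in MAL, also without overlap (log2 fold change -1.55 ± 0.52, SE).

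Early response factors split. Of 23 immediate early genes 13 were higher and 10 lower (median 0.14, from -0.03 without MAL 4 to 0.39 without CON 1). Of the lower ones, 4 had an unadjusted p under 0.05, namely Fosl2, Maff, Gadd45b, and Nr4a2, 17.4% of the list against 0.838% of all genes. Fosl2 and Maff were also named by the rule of the smallest p, so this count partly repeats that choice. Fosl2, an AP-1 factor gene, was at 119.9, 167, 163, and 191 CPM in CON and at 79.5, 74.7, 116, 95.7, and 121 in MAL (log2 fold change -0.72 ± 0.18, SE). Maff, a small MAF factor gene, was at 43.5 to 58.2 CPM in CON and at 14.1, 15.0, 29.3, 24.7, and 41.2 in MAL (-0.98 ± 0.25), with no overlap. Enzymatic dissociation is known to induce immediate early and NF-kB genes in microglia, and its part in these differences was not tested. Coq10b, a coenzyme Q binding protein gene, was at 46.5 to 56.2 CPM in CON and 25.8 to 44.4 in MAL (-0.65 ± 0.16).

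Of the genes higher in MAL with the smallest p values, Ccr2 (chr9:124101918-124109140), the chemokine receptor gene of classical monocytes, led. It was at 51.0, 52.5, 66.2, and 69.0 CPM in CON and at 116, 108, 107, 155, and 64.7 in MAL, and MAL 5 alone fell within the CON range. The log2 fold change was 0.88 ± 0.22 (SE, fold between 1.34 and 2.54, unadjusted p = 0.00101, edgeR). Of 11 monocyte markers 9 were higher (median 0.41), Ccr2 and the integrin gene Itga4 with an unadjusted p under 0.05, 18.2% of the list against 0.618% of all genes. Ccr2 was named by the rule of the smallest p, so this count partly repeats that choice. The summed level of the 11 markers was 1397 to 2411 CPM in CON and 1602 to 2102 in MAL, so the MAL range lay within that of CON. The median was 0.14 without CON 1. The sort by CD11b does not remove monocytes, and the number of monocytes and the RNA per monocyte cannot be told apart in bulk libraries. Sh2d1b1, a signaling adaptor gene, was at 1.69 to 3.33 CPM in CON and 4.06 to 6.61 in MAL, with no overlap (0.98 ± 0.25, unadjusted p = 0.00144, edgeR). Oas1g, an interferon-induced synthetase gene with close paralogs that can share its reads, was at 2.78 to 3.86 and 3.70 to 8.34 CPM (0.90 ± 0.25). BC147527 and Calhm2 had 0.72 ± 0.22 and 0.52 ± 0.16.

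Among genes with at least 1 CPM whose ranges did not overlap, those with the largest differences were of low abundance. Beside Sh2d1b1, Prr11, a cell cycle gene, was at 0.845 to 0.984 CPM in CON and 1.35 to 3.15 in MAL, and Pira6, of a receptor family with near-identical copies, at 0.835 to 1.97 and 2.13 to 3.27. Neither had an unadjusted p under 0.05 in the fit of all 16 libraries (0.0999 and 0.172, edgeR). That fit takes in the spread of MAL-BG, where Prr11 was at 2.01 ± 2.01 CPM (SD) and Pira6 at 0.529 ± 0.473. Both had an unadjusted p under 0.05 in at least 1 alternative. On the lower side, after Il1r2, stood Gdf15 and Adamtsl5. Gdf15 (chr8:70629393-70632470), a stress hormone gene that ATF4 and CHOP induce, was at 19.7, 15.4, 9.46, and 11.1 CPM in CON and at 2.72, 9.10, 7.31, 6.37, and 6.93 in MAL. It was thus lower in each MAL library, with a log2 fold change of -1.10 ± 0.35 (SE) and an unadjusted p of 0.00636 (edgeR), while Chac1 of the same route was higher. Adamtsl5, a matrix protein gene, was at 3.63 to 6.36 and 1.75 to 2.67 CPM.

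The step made by diet was last set against the step made by bacteria on the same chow. The 2 steps share the MAL libraries, so a deviation of these enters both with opposite sign, and the test is of the difference between the steps in the same fit. It was passed by 538 genes (3.69%). This count rested on single libraries, being 78 without MAL 3 and 1215 without MAL 4. Of the 50 readouts, 1 passed, namely Fads2. Ccr2, Sh2d1b1, and Oas1g were chosen above for high MAL values against CON, and that choice favors a return toward CON in MAL-BG, so their levels are given as a description with no test. Ccr2 was at 39.1 to 68.1 CPM (median 57.1) in the 7 MAL-BG libraries, Sh2d1b1 at 2.73 to 4.39 CPM, and Oas1g at 2.80 to 4.34 CPM. Fads2, level between MAL and CON, was at 1.69 to 5.71 CPM in MAL-BG, below each CON and MAL library (a difference of steps of -3.06 ± 0.65 on the log2 scale, SE, adjusted p = 0.0177, edgeR). RNA of other brain cells also differed, with overlapping ranges. Choroid plexus markers summed to 1903 to 17305 CPM in MAL-BG, 14803 to 57030 in CON, and 6937 to 44584 in MAL. Neuronal markers summed to 36.3 to 163 CPM in MAL-BG, 149 to 641 in CON, and 150.3 to 714 in MAL. The part of this RNA in the Fads2 values was not tested. Among the nutrient lists the test was passed by 3 of 29 amino acid transporters, Slc1a2, Slc1a5, and Slc36a4, and by 0 of 31 glycolysis and 0 of 78 ribosomal protein genes. Of 11 monocyte markers 5 passed, each with a negative difference of steps, and the pass of Ccr2 carries the choice named above. Since 9 of the 11 were higher in MAL than in CON, the shared MAL libraries favor such passes. No conclusion is drawn from this count.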

How the data were processed

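RNA-Seq libraries of CD11b+ cells from 4 CON and 5 MAL mice were compared, with 7 MAL-BG libraries in the same fit. The authors prepared poly(A) RNA with a stranded kit, aligned paired reads with STAR (GRCm38.p6), and deposited HTSeq counts per gene without normalization. The annotation and the counting mode are not given in the sources used here. Groups were read from column names. Filtered counts were scaled by TMM and tested in R 4.3.3 by edgeR 4.0.16 (quasi-likelihood). The code of the study has a batch term, but the columns could not be matched to the sample titles, so none was fitted. The threshold for DEGs was 0.05 for the p after Benjamini-Hochberg adjustment, with a log2 fold change beyond 0.58 in either direction. Fold changes are unshrunk, with Wald standard errors and 95% intervals from the quasi-likelihood variance. A prior count of 2 entered log2 CPM. Libraries of a group differed beyond counting noise (chi-square over its degrees of freedom, 9.80 or more), so each was 1 replicate. Counting intervals cover counting error only, and precision is given by abundance in the report. DESeq2 1.42.0, limma 3.58.1, and sva 3.50.0 served the alternatives.

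Genes named one by one were 50 readouts of nutrient routes, the 5 with the smallest unadjusted p in each direction, and the 3 with the largest difference in each direction among genes of at least 1 CPM whose ranges did not overlap. Other genes named from the lists were chosen after their values were seen. The comparison, the lists, and the rules were chosen with earlier results of these data known. The steps were tested on simulated data. The list genes Mars1, Slc66a1, Castor1, Castor2, and Gcn1 were matched through RefSeq synonyms, and RefSeq gave coordinates for 64 of the 65 named genes. Some single genes of the lists are not reported here.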

Additional observations from a re-analysis of the deposited data

Results flagged for a closer look

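The highest or lowest library of a group was compared with the rest of its group by the gap to its neighbor over the range of the group, for 65 named genes and 32 gene lists in CON and in MAL. The gap exceeded Dixon's 95% critical value in 17 of 194 groups. Chance gives about 1 in 20 (9.7 groups), and genes and lists are not independent of each other. No explanation was tested.

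In CON, CON 1 was the library that stood off in each of 10 groups. It was low for Cpt1a (gap over range 0.908, 75.6 CPM against 108 to 111), Fads2 (0.887, 15.0 against 28.8 to 30.5), and Fasn (0.908, 41.0 against 62.2 to 64.4), enzyme genes of fatty acid metabolism. It was high for the amino acid sensor gene Eif2ak4 (0.964, 53.3 CPM against 34.0 to 34.7), for Hmox1 (0.869, 116 against 47.0 to 56.1), and for Sesn1 (0.845, 177 against 96.7 to 109). Among lists it was low for NRF2 and antioxidant defence (0.968), fatty acid oxidation and PPAR targets (0.849), glycolysis (0.867), and neuron markers (0.841).

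In MAL, MAL 4 was high for Atf4 (0.833, 497 CPM against 249.9 to 291), Hmox1 (0.715, 112 against 60.3 to 75.2), Igf1 (0.837, 25.1 against 7.25 to 10.1), Mt1 (0.788, 323 against 149 to 186), and lymphocyte markers (0.763). MAL 5 was high for Bcl3 (0.846, 18.9 CPM against 12.9 to 13.8), and MAL 1 was low for the 3 erythroid markers tested (0.768).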

How the results depend on the processing

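No paired analysis was possible because the columns are numbered in running order within each group and could not be matched to the sample titles, so an equal number does not mark a pair. No DEG was found under any of the 22 alternatives, which were 3 other filters, 2 other scalings, DESeq2, limma-voom with and without sample quality weights, robust quasi-likelihood, the 9 libraries alone, 2 covariates, and libraries left out, nor without the fold change threshold. Of 65 named genes, 0 became a DEG. Each log2 fold change moved by less than 1 SD of the replicates under each alternative that tested the gene. Leaving out a single library can hardly move a group mean that far, so no stability is read from this. Over the reported fit and the alternatives, the log2 fold change of Tsc22d3 ran from 0.31 to 1.01. That of Ddit3 ran from -0.11 to 0.41.

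The count at an unadjusted p under 0.05 (212) was 363 with no filter on low counts, 1532 with sample quality weights, and 126 to 1086 with single libraries left out (1086 without CON 1, 126 without MAL 1, 131 without CON 2). With the weights, 41 of 78 ribosomal protein and 25 of 73 oxidative phosphorylation genes, all lower, were among these 1532, against 1 and 0 in the reported fit, and the smallest adjusted p was 0.154. It was 0.0703 by DESeq2, 0.0857 without MAL 5, and 0.610 to 1 under the others. The count of genes whose diet and bacteria steps differed (538) was 1282 by DESeq2, 4644 with sample quality weights, 815 with choroid plexus markers as a covariate, 2379 with 1 surrogate variable, and 78 to 1215 with single libraries left out (78 without MAL 3, 1215 without MAL 4, and 98 to 349 without any one of CON 2, CON 3, CON 4, MAL 1, MAL 2, or MAL 5). The ATF4 median (0.10) was 0.0514 to 0.125 with single libraries left out and 0.0524 without CON 1, MAL 1, and MAL 4 (an alternative chosen after seeing the data). The mTORC1 median was -0.0460 to 0.0207 and the glucocorticoid median -0.11 to 0.11. In 17 of 32 lists, 5 of 14 nutrient lists among them, the median took the other sign under at least 1 alternative. The cause of these changes was not tested. Depth limits the comparison for genes under 1 CPM, of which 2.61% were bounded within 2-fold.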

Other observations

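The remaining lists gave no call between MAL and CON. Heat shock genes had 11 higher and 9 lower of 20 (median log2 fold change 0.01). Ependymal markers were lower for 11 of 12 (median -0.25, and -0.08 without MAL 4) and endothelial markers for 11 of 11 (median -0.18, and 0.12 without CON 4), while pericyte and smooth muscle markers were lower for 8 of 11 (median -0.23, and 0.27 without CON 4). Astrocyte and oligodendrocyte markers had 5 and 6 higher of 12 each (medians -0.13 and 0.03). Neutrophil markers were higher for 10 of 14 (median 0.36, and -0.13 without MAL 4), border macrophage markers for 6 of 11 (median 0.11, and -0.37 without MAL 4), and lymphocyte markers for 4 of 8 (median 0.04). The 3 erythroid genes tested were lower (median -0.46, from -0.59 to -0.08 over the alternatives). Signs of the astrocyte, oligodendrocyte, lymphocyte, and heat shock medians also turned when single libraries were left out.

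Some transcripts of organs outside the brain varied widely between libraries and were noticed after their values were seen. The pituitary hormone genes Prl and Gh had 1180 and 1051 counts in MAL 4 and 76 and 52 in CON 2, against 0 to 10 in the other 7 diet libraries. The islet hormone genes Ins2 and Iapp had counts in each diet library. Ins2 had 91, 52, 77, and 19 counts in CON and 306, 169, 25, 30, and 149 in MAL, and Iapp had 41, 3, 20, and 2 in CON and 159, 45, 2, 15, and 72 in MAL. Bpifa1, an airway secretory gene, had 221 counts in MAL 2 and 47 in MAL 5, against 0 to 4 in the other 7. The source of these counts was not tested.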
